A study of Mus musculus with 12 samples.

Results

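The chemokine receptor gene *Ccr2* and the genes of 4 chemokines that bind its product, *Ccl2*, *Ccl7*, *Ccl8* and *Ccl12*, were examined by RNA-seq in mouse bone marrow cells cultured with indole-3-propionic acid (IPA), a metabolite that gut bacteria make from tryptophan. The genes were chosen by symbol, and 5 of 5 were found among the 54532 genes of the count table. They were picked because *Ccr2* and *Ccl2* were already known to differ between the groups of these same libraries, so their differences are given as a description and are not independent support. Bone marrow cells of WT C57BL/6 mice were cultured in medium with GM-CSF and IL-6, cytokines that drive the output of monocytes, neutrophils and immunosuppressive myeloid cells. The 3 groups received 0.1% DMSO as vehicle, 10 µM IPA or 50 µM IPA, and all cells were harvested on day 5, with 4 libraries in each group. All 12 libraries therefore share the cytokines, and no freshly isolated marrow is part of the comparison. The cultures were not sorted, and nothing in the labels ties the libraries of a group to separate mice, so p-values measure the spread between these libraries, which may be technical.

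CCR2 is a G protein-coupled receptor carried at high levels by classical (Ly6C high) monocytes. Signalling through it lets these monocytes leave the bone marrow and enter inflamed tissue and tumours, and its ligands are known as the monocyte chemoattractant proteins. CCL2 (MCP-1) is the best known of them, CCL7 (MCP-3) also binds CCR1 and CCR3, CCL12 (MCP-5) is a rodent chemokine, and mouse CCL8 (MCP-2) is known to act on CCR8. The ligand genes lie in one cluster, while *Ccr2* lies in a separate cluster of CC chemokine receptor genes.

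On GRCm38 with GENCODE M21 annotation, *Ccr2* lies at chr9:124101950-124113557 on the plus strand. The ligand genes lie within 81229 bases of chromosome 11, all on the plus strand, with *Ccl2* at chr11:82035571-82037453, *Ccl7* at chr11:82045712-82047525, *Ccl12* at chr11:82101845-82103400 and *Ccl8* at chr11:82115185-82116799. *Ccl11*, which encodes an eosinophil attractant, lies between *Ccl7* and *Ccl12* and had 0 counts in all 12 libraries. *Ccl2* lies inside a gene model of the opposite strand, Gm17268, but no exon of that gene overlaps an exon of *Ccl2*, and the other members overlap no annotated gene. The ligands belong to the CC class, named for adjacent cysteines near the start of the mature protein. The stretch of 60 coding bases around those cysteine codons is shown because it is the shared signature of the 4 ligands. It was read 5′ to 3′ from the GENCODE transcripts, and the capitals mark the 2 cysteine codons.
Ccl2: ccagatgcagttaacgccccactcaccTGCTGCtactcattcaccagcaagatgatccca
Ccl7: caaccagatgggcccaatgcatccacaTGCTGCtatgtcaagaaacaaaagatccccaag
Ccl12: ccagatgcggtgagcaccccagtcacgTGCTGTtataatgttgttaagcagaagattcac
Ccl8: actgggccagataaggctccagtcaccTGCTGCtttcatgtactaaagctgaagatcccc

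Without gaps, these stretches of *Ccl8* and *Ccl12* had the same base at 38 of 60 positions, and those of *Ccl7* and *Ccl8* at 20. Such a count drops where inserted or deleted bases shift a sequence, so it does not measure divergence. Over the whole coding sequence, identity between 2 ligands ranged from 44.9% to 64.7% (*Ccl7* and *Ccl8*) of alignment columns, gaps included. The lowest values are those of pairs with *Ccl2*, whose 444 coding bases exceed the 291 to 312 of the others, so gaps lower them. The longest identical run was 17 bases. No ligand shared a 50-base word with another gene, so a read of that length matches 1 ligand at most. Of the 6758 words of 50 bases in *Ccr2*, 129 (1.91%) occurred in another gene, so a small part of its reads could not be assigned by sequence alone.

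The 5 members were followed as CPM, the reads of a gene scaled to a library of fixed size, normalized by the TMM method over the 12 libraries. Libraries held between 20451312 and 28038612 counted reads. Groups were compared in pairs with edgeR's quasi-likelihood test on the 8 libraries concerned, over the 14894 genes with over 0.5 CPM, here before TMM normalization, in at least 2 of the 12 libraries, and a gene was called at an adjusted p (Benjamini-Hochberg) under 0.05. All 5 members passed that filter, and *Ccl8* alone had values under 0.5 CPM, 2 of its 4 at 50 µM. The 3 comparisons share libraries, so their values are set side by side and are not independent of each other.

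*Ccr2* was the most highly expressed member in every library by CPM. Its level was 277, 296, 385 and 430 CPM in the 4 vehicle libraries (347 ± 72.7, mean ± SD, n = 4). At 10 µM it was 487, 507, 527 and 499.9 CPM (505 ± 16.5), and at 50 µM it was 225, 189, 204 and 198 CPM (204 ± 15.4). The groups did not overlap: every library at 10 µM lay above every vehicle library, and every library at 50 µM lay below. The vehicle group spread most, with replicates 3 and 4 above replicates 1 and 2.

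The receptor transcript thus lay on opposite sides of the vehicle range at the 2 doses. At 50 µM it was 1.69-fold lower than with vehicle (log2 fold change -0.76, SE 0.13, edgeR adjusted p = 0.00153). Against 10 µM it was 2.47-fold lower (log2 fold change -1.31, SE 0.07, edgeR adjusted p = 7.21e-09), the rank 3 gene by p-value of all genes tested. At 10 µM it was 1.46-fold higher than with vehicle (log2 fold change 0.54, SE 0.12), which missed the threshold of the genome-wide test (edgeR adjusted p = 0.0975). That call turned on the tool, since DESeq2 gave the same difference an adjusted p of 0.00287. It also turned on vehicle replicate 4, without which the log2 fold change was 0.66 and the edgeR adjusted p was 0.00759. In an unsorted culture, fewer cells of a type and less RNA per cell cannot be told apart.

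**Figure D1:**
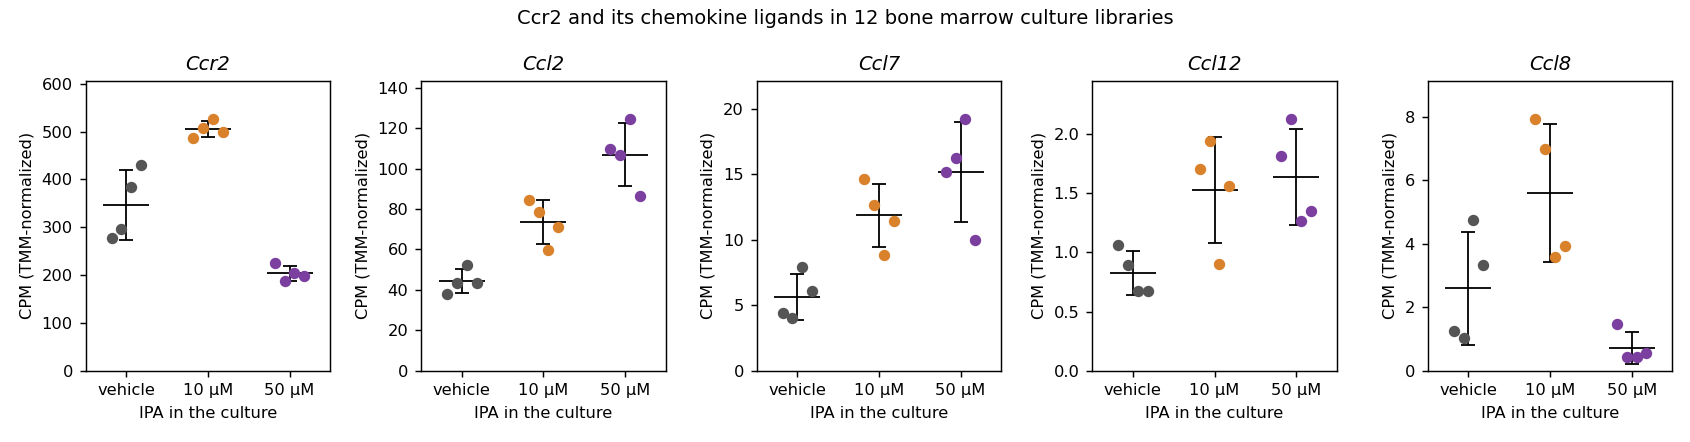
Level of each member in the 12 libraries, in TMM-normalized CPM on linear axes from 0. Points are libraries in order of replicate number within vehicle, 10 µM and 50 µM IPA, and black bars give the mean and SD of 4 libraries; *Ccr2* was highest at 10 µM and lowest at 50 µM, whereas the *Ccl2* mean rose from 44.3 to 73.5 and 106.9 CPM.

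*Ccl2*, the principal ligand, rose with each dose. It was at 38.0, 43.3, 52.2 and 43.5 CPM with vehicle (44.3 ± 5.87, n = 4). At 10 µM the libraries held 84.6, 78.8, 59.7 and 71.1 CPM (73.5 ± 10.7), and at 50 µM 109.7, 106.9, 124.6 and 86.5 CPM (106.9 ± 15.7). No library of one group reached into the range of another. The difference from vehicle was 1.66-fold at 10 µM (log2 fold change 0.73, SE 0.12, edgeR adjusted p = 0.0277) and 2.43-fold at 50 µM (1.28, SE 0.12, edgeR adjusted p = 1.66e-05). Between the doses it was 1.46-fold (0.54, SE 0.11, edgeR adjusted p = 0.00380). The call at 10 µM was lost when any of 5 of the 8 libraries was left out: vehicle replicate 1 (adjusted p = 0.115) or 2 (0.0883), or 10 µM replicate 1 (0.0826), 2 (0.143) or 4 (0.0536).

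*Ccl7*, the next ligand gene along the chromosome, had fewer reads than *Ccl2* in every library. With vehicle its libraries held 4.43, 4.05, 7.93 and 6.08 CPM (5.62 ± 1.78, n = 4). At 10 µM they held 14.6, 12.6, 8.84 and 11.4 CPM (11.9 ± 2.41), and at 50 µM 15.2, 16.2, 19.2 and 10.0 CPM (15.2 ± 3.85). All libraries with IPA lay above all vehicle libraries, and the 2 doses overlapped. Against vehicle the log2 fold change was 1.44 at 50 µM (SE 0.23, edgeR adjusted p = 0.00102) and 1.08 at 10 µM (SE 0.22, edgeR adjusted p = 0.0664), the latter past the threshold in DESeq2. Between the doses it was 0.36 (SE 0.18, edgeR adjusted p = 0.201), and leaving out 50 µM replicate 4, the lowest of its group, raised it to 0.51 (adjusted p = 0.0464).

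*Ccl12*, the rodent ligand, was the member with the fewest reads with vehicle. Its counts there were 28, 24, 15 and 17 reads, or 1.06, 0.891, 0.672 and 0.676 CPM (0.825 ± 0.187, n = 4). It held 1.70, 1.94, 0.903 and 1.56 CPM at 10 µM (1.52 ± 0.443) and 1.81, 2.13, 1.26 and 1.34 CPM at 50 µM (1.63 ± 0.406). The 50 µM libraries all lay above the vehicle libraries, while 10 µM replicate 3 lay inside the vehicle range. The log2 fold change from vehicle was 0.87 at 10 µM (SE 0.33, edgeR adjusted p = 0.434) and 0.99 at 50 µM (SE 0.32, edgeR adjusted p = 0.0570), and DESeq2 called the latter (adjusted p = 0.0314). Between the doses it was 0.12, with an approximate 95% interval, from its SE, of -0.49 to 0.72.

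*Ccl8*, the last gene of the row, followed another course. Its counts were 33, 28, 106 and 84 reads with vehicle, 219, 144, 95 and 86 at 10 µM and 30, 12, 9 and 13 at 50 µM. In CPM these were 1.25, 1.04, 4.75 and 3.34 with vehicle (2.59 ± 1.77, n = 4), 7.93, 6.97, 3.57 and 3.94 at 10 µM (5.60 ± 2.17), and 1.47, 0.440, 0.437 and 0.546 at 50 µM (0.722 ± 0.498). Vehicle replicates 3 and 4 lay within or next to the range at 10 µM, whereas vehicle replicates 1 and 2 lay between 50 µM replicate 1 and the other 50 µM libraries. Against 10 µM, *Ccl8* at 50 µM was 7.88-fold lower (log2 fold change -2.98, SE 0.38, edgeR adjusted p = 6.07e-05) with no overlap. Against vehicle it was 3.60-fold lower, with an overlap that rests on 50 µM replicate 1 (-1.85, SE 0.54, edgeR adjusted p = 0.0370), and limma-voom did not call it (-1.70, adjusted p = 0.0950). That call was also lost without vehicle replicate 3 (-1.38, adjusted p = 0.146) and without 50 µM replicate 2 (adjusted p = 0.108), 3 (0.107) or 4 (0.106). The difference of 10 µM from vehicle was 1.13 on the log2 scale (SE 0.44, edgeR adjusted p = 0.455), and the groups overlapped.

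**Figure D2:**
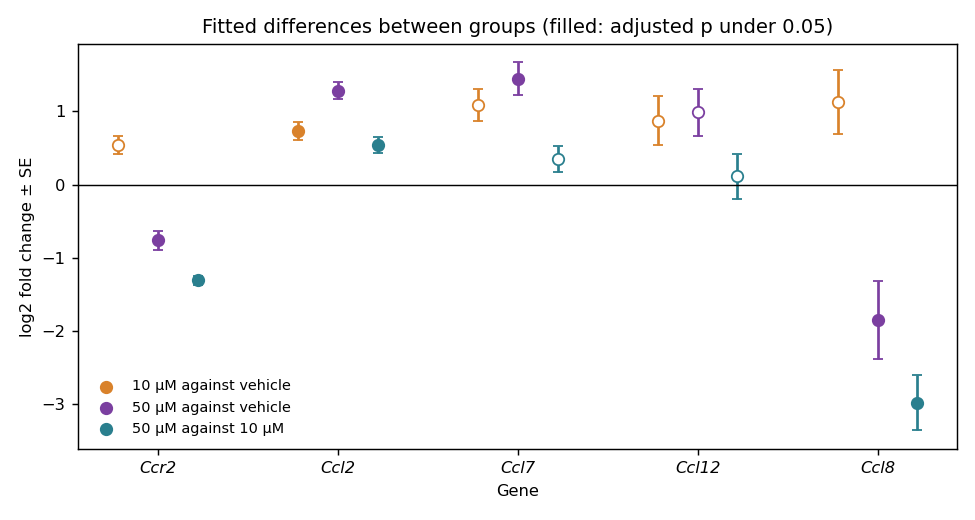
Log2 fold change of each member in the 3 comparisons from edgeR's quasi-likelihood fit, with bars of 1 SE. Filled points had an adjusted p under 0.05 over all genes tested, and open points did not; *Ccr2* and *Ccl8* lie below 0 in both comparisons of 50 µM and above 0 at 10 µM against vehicle, and the other ligands lie above 0 throughout.

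By count, 1 of the 4 ligands was called at 10 µM, *Ccl2*, where 0.329% of all genes tested were called higher and 0.0806% lower. At 50 µM against vehicle 3 ligands were called, *Ccl2* and *Ccl7* higher and *Ccl8* lower, beside 7% of all genes called higher and 6.5% lower. At 50 µM against 10 µM *Ccl2* was called higher and *Ccl8* lower, beside 7.52% and 7.85% of all genes, and *Ccr2* was called lower in both comparisons of 50 µM. The ranges did not overlap, with the IPA group above, for *Ccr2*, *Ccl2* and *Ccl7* at 10 µM (3.57% of all genes) and for *Ccl2*, *Ccl7* and *Ccl12* at 50 µM (9.45% of all genes), against vehicle in each case. They lay apart in the other direction for none of the members at 10 µM (2.56% of all genes) and for *Ccr2* at 50 µM (10.5%). Between the doses they lay apart for *Ccl2*, higher at 50 µM (9.43%), and for *Ccr2* and *Ccl8*, lower (10.9%). Because the members were chosen with these contrasts known, nothing is read from these counts.

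The levels of different genes were compared per kilobase of annotated exon, joined over all transcripts of a gene (6760 bases for *Ccr2* and 1138 for *Ccl2*). The transcripts in use are not known, so comparisons between genes depend on these lengths. With vehicle, *Ccr2* stood at 51.3 ± 10.8 CPM per kb and *Ccl2* at 38.89 ± 5.16, followed by *Ccl7* at 7.02 ± 2.22, *Ccl8* at 5.08 ± 3.47 and *Ccl12* at 1.54 ± 0.348 (SD, n = 4). The ranges of *Ccr2* and *Ccl2* overlapped, and so did those of *Ccl7* and *Ccl8*. At 10 µM the order was the same, with *Ccr2* at 74.7 ± 2.44 and *Ccl2* at 64.6 ± 9.44 CPM per kb, *Ccl7* and *Ccl8* at 14.8 ± 3.01 and 11.0 ± 4.26 and *Ccl12* at 2.84 ± 0.825, and the same neighbours overlapped. At 50 µM *Ccl2* came first with 94.0 ± 13.8 CPM per kb, ahead of *Ccr2* with 30.2 ± 2.28, and *Ccl8* came last with 1.41 ± 0.975, below *Ccl12* with 3.04 ± 0.755. The ranges of *Ccl2* and *Ccr2* did not overlap there, whereas *Ccl8* in replicate 1 reached into the range of *Ccl12*.

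Ratios of raw counts within a library do not depend on its scaling. There were 0.130 ± 0.0199 *Ccl2* reads for each *Ccr2* read with vehicle and 0.146 ± 0.0254 at 10 µM, which overlapped, but 0.525 ± 0.0779 at 50 µM (SD, n = 4). The lowest 50 µM library had 0.437 and the highest of the others 0.174. The ratio of *Ccl8* to *Ccl12* reads ranged from 1.17 to 7.07 with vehicle and from 2.53 to 4.66 at 10 µM, but from 0.207 to 0.811 at 50 µM, below every other library. *Ccl7* per *Ccl2* read held a narrow range, with means of 0.125 with vehicle, 0.160 at 10 µM and 0.140 at 50 µM and overlap between the groups. Of all reads of the 4 ligands, *Ccl2* made up 83.4% with vehicle, 79.7% at 10 µM and 86.0% at 50 µM, while the share of *Ccl8* was 4.59%, 5.90% and 0.587%.

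**Figure D3:**
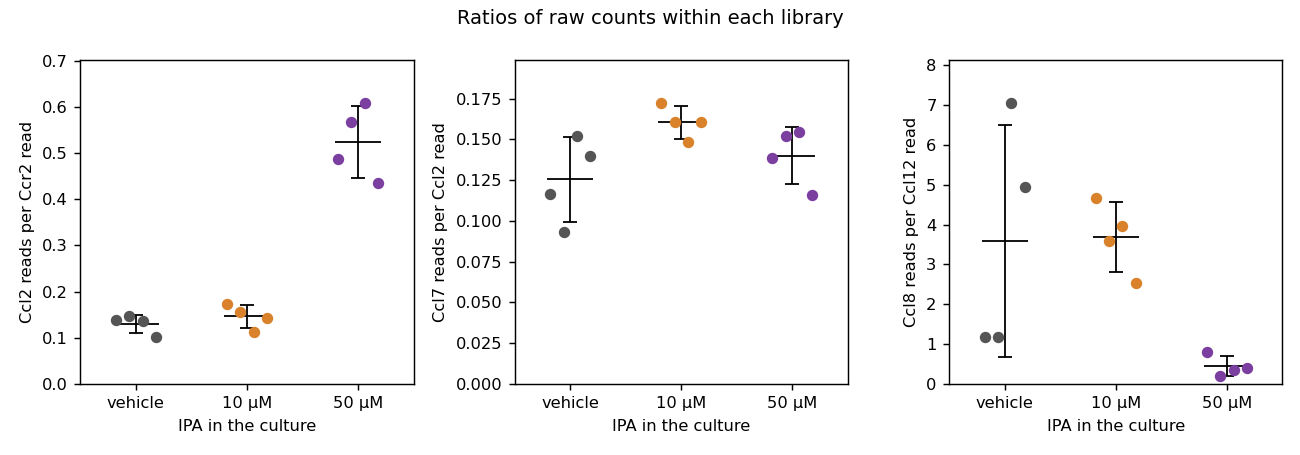
Ratios of raw counts in each of the 12 libraries, on linear axes from 0, for *Ccl2* to *Ccr2*, *Ccl7* to *Ccl2* and *Ccl8* to *Ccl12*. Points are libraries and black bars the mean and SD of 4 libraries; at 50 µM all libraries lie apart from the others for the first ratio (lowest 0.437) and for the last (highest 0.811), and the groups overlap for the middle one.

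Across the 12 libraries the log2 levels of *Ccl2* and *Ccl7* had a Pearson correlation of 0.95, and of 0.91 after each group's mean was taken out. For *Ccr2* and *Ccl8* the values were 0.93 and 0.73, and for *Ccl8* and its neighbour *Ccl12* they were -0.13 and -0.00. *Ccr2* and *Ccl2* had a correlation of -0.42 across all libraries and of 0.27 within groups. These values are descriptive, because the libraries share their groups and depth. The genes whose log2 level ran closest to that of *Ccr2*, of 12606 genes averaging 1 CPM or more, were *Asgr2*, a subunit of the asialoglycoprotein receptor (r = 0.986), *Ctsc*, the protease cathepsin C (0.983), *Sirpb1a*, *Rhoq* and the cholesterol exporter *Abcg1* (0.976 each). *Asgr2* was at 72.7 CPM at 10 µM and 24.8 CPM at 50 µM. Closest to *Ccl2* were the chemokine *Ccl9* (0.967), the protease *Ctsl* (0.957), *Ccl7* itself (0.953), *Nabp1* (0.950) and *Pla2g7* (0.949). All these genes were ranked by the likeness, so it is no finding about them.

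The promoter windows of *Ccl12* and *Ccl8* are shown because these neighbours, whose start sites are 13340 bases apart, took different courses at 50 µM. Each window holds the 250 bases before the annotated start in RefSeq's table for GRCm38.p6 on the plus strand, at chr11:82101595-82101844 for *Ccl12* and chr11:82114935-82115184 for *Ccl8*, and capitals mark motif matches.
Ccl12: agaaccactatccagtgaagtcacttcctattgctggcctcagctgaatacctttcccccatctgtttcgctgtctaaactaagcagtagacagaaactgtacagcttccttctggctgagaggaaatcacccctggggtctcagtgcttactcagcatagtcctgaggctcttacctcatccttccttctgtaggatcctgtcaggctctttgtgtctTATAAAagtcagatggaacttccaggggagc
Ccl8: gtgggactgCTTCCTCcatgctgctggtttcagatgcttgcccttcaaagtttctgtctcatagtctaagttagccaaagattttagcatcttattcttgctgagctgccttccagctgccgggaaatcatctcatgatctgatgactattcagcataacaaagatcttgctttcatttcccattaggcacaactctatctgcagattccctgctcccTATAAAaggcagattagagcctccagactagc

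Of the 5 members, 3 were matched in that table, *Ccr2*, *Ccl8* and *Ccl12*, and the windows searched there run on to 50 bases after the start. The motifs, sought on both strands, were the TATA box TATAAA, the AP-1 site TGANTCA, the C/EBP-type site TGATGNAA, the PU.1-type site GAGGAAG and the NF-kB site. TATAAA occurred on the plus strand 31 bases before the start in *Ccl12* and 32 before it in *Ccl8*, as it did somewhere in 13.6% of 32851 windows. GAGGAAG occurred once, 241 bases before the start of *Ccl8* on the minus strand, and 13.6% of all windows hold it. The AP-1 (7.81% of windows), C/EBP-type (3.97%) and NF-kB (4.51%) letters were in none of the 3 windows, and the *Ccr2* window held none of the 5. The 2 printed windows were identical at 55.6% of alignment columns, gaps included, with no identical run over 8 bases.

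Most other CC chemokine genes were higher at 50 µM. Of 12 such genes 9 were tested, of which 8 rose against vehicle and none fell (7% and 6.5% of all genes; the median log2 fold change was 0.70, beside 0.01 over all genes). *Ccl24*, a ligand of CCR3, rose most, from 1.31 to 13.1 CPM (log2 fold change 3.31, SE 0.32, edgeR adjusted p = 3.17e-05). *Ccl9*, a ligand of CCR1, rose from 707 to 1426 CPM (1.02, SE 0.10, edgeR adjusted p = 4.07e-05), and *Ccl6*, the most highly expressed of them, from 2780 to 4974 CPM (0.85, SE 0.10, edgeR adjusted p = 0.00011). The CCR4 ligands *Ccl22* (0.86) and *Ccl17* (0.66) and the inflammatory chemokines *Ccl5* (0.70), *Ccl3* (0.67) and *Ccl4* (0.58) rose as well. *Ccl25*, a ligand of CCR9, did not pass the test (-0.12, edgeR adjusted p = 0.812). At 10 µM *Ccl24* alone was called (1.83, SE 0.22, edgeR adjusted p = 0.0098), where 0.329% of all genes were called higher, and the median was 0.35 beside -0.01 over all genes. *Ccl24*, *Ccl22*, *Ccl6*, *Ccl9* and *Ccl5* were called higher at 50 µM than at 10 µM, as were 7.52% of all genes.

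**Figure D4:**
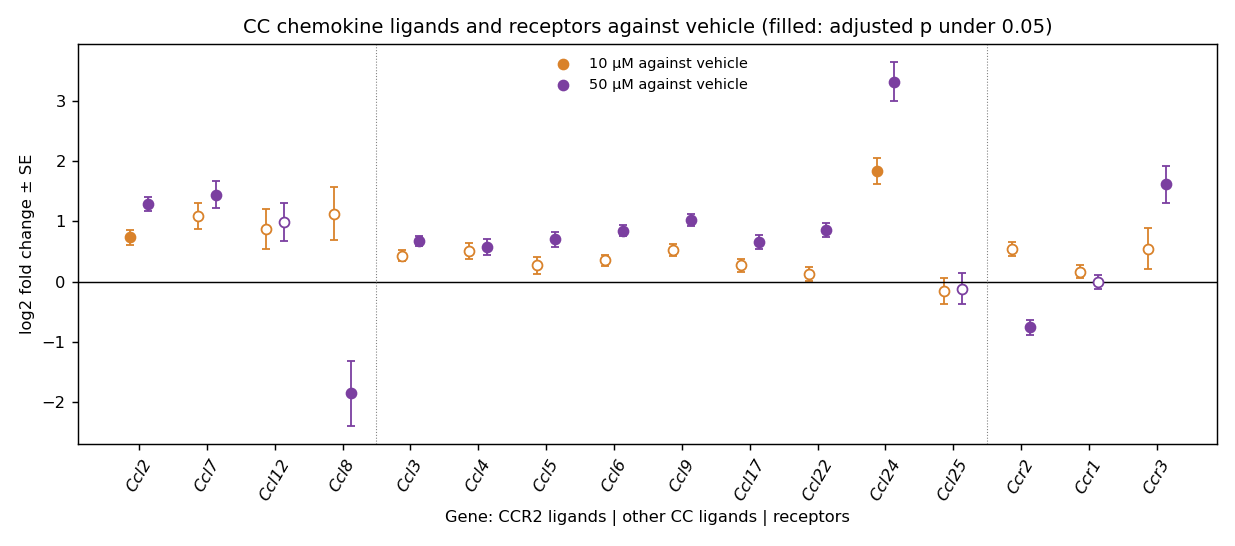
Log2 fold change against vehicle, with bars of 1 SE, for the 4 ligands of CCR2, the 9 tested other CC chemokines and the receptors *Ccr2*, *Ccr1* and *Ccr3*, at 10 µM and 50 µM IPA. Filled points had an adjusted p under 0.05; at 50 µM *Ccl8* (-1.85) and *Ccr2* (-0.76) are the filled points below 0, and *Ccl24* (3.31) is highest.

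Other receptor genes for these ligands were examined as well. *Ccr1*, which binds CCL7, was at 419 ± 67.4 CPM with vehicle, 469 ± 41.7 at 10 µM and 415 ± 44.2 at 50 µM (SD, n = 4) and was called in no comparison. *Ccr3* was sparse, with means of 0.742, 1.09 and 2.25 CPM, and rose at 50 µM against vehicle (1.61, SE 0.31, edgeR adjusted p = 0.00412) and against 10 µM (1.06, SE 0.29, edgeR adjusted p = 0.0218). *Ccr8*, through which mouse CCL8 acts, had at most 3 reads in a library and was not tested, and neither were the decoy receptor genes *Ackr1* and *Ackr2*. Of 16 further chemokine receptor genes 13 were tested and 4 were called at 50 µM against vehicle, 3 lower and 1 higher (6.5% and 7% of all genes). *Cx3cr1*, the fractalkine receptor (-1.13), *Cxcr2*, a neutrophil receptor (-0.79), and *Cxcr4*, which retains cells in the marrow (-0.38), fell, and *Ccr7*, which guides dendritic cells to lymph nodes (0.41), rose. Between the doses *Ccr7* and *Ccr4* were higher and *Cx3cr1* and *Cxcr2* lower at 50 µM (7.52% and 7.85% of all genes).

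Of 19 genes that carry the signal of such receptors, all were tested and none was called at 10 µM, where 0.329% of all genes were called higher and 0.0806% lower. At 50 µM against vehicle the kinase gene *Jak2* rose (log2 fold change 0.30, SE 0.07, edgeR adjusted p = 0.0154) and the exchange factor gene *Vav1* fell (-0.34, SE 0.07, edgeR adjusted p = 0.0073), beside 7% of all genes called higher and 6.5% lower. Between the doses 5 of the 19 were called, *Jak2* (0.30) and the phospholipase gene *Plcb3* (0.29) higher and *Vav1* (-0.25), the GTPase gene *Rac1* (-0.24) and the kinase gene *Pik3cg* (-0.22) lower, beside 7.52% of all genes called higher and 7.85% lower. *Gnai2*, the G protein subunit gene with the most reads, was at 1575, 1554 and 1570 CPM in vehicle, 10 µM and 50 µM. Of 18 regulators of chemokine genes, among them the NF-kB subunits, none was called at 10 µM, beside those same low shares of all genes, and *Cebpd* fell at 50 µM against vehicle (-0.53, SE 0.09, edgeR adjusted p = 0.00202). Between the doses the interferon response factor gene *Irf1* was higher at 50 µM (0.39, SE 0.09, edgeR adjusted p = 0.00655), and *Cebpd* (-0.34) and *Junb* (-0.18) were lower, beside 7.52% of all genes called higher and 7.85% lower. Of 9 cytokine genes known to induce these ligands 6 were tested. At 50 µM against vehicle *Csf1*, the macrophage growth factor, rose from 91.5 to 187 CPM (1.04, SE 0.09, edgeR adjusted p = 1.47e-05), and *Il1b* fell from 262 to 142 CPM (-0.87, SE 0.12, edgeR adjusted p = 0.000448). *Tnf* was called only between the doses, higher at 50 µM (0.68, SE 0.07, edgeR adjusted p = 8.25e-06).

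Markers of the cells that can carry these transcripts moved as well. The labels call the samples bone marrow cells, and markers of neutrophils (11 genes, summed 12529 to 23807 CPM per library), monocytes (12 genes, 2624 to 4871 CPM) and macrophages (10 genes, 1816 to 2404 CPM) were all present, none at 0 throughout. The summed monocyte markers ranged from 2882 to 3544 CPM with vehicle, 3815 to 4871 at 10 µM and 2624 to 3338 at 50 µM, a sum in which *Fn1* has the largest share, with means of 1451, 2554 and 1696 CPM. Of the 12, 6 fell at 50 µM against vehicle (6.5% of all genes), *F13a1* (-1.92), *S100a4* (-1.89), *Cx3cr1*, *Vcan* (-0.74), *Klf4* (-0.59) and *Spn* (-0.38), and *Irf8* rose (0.40), while *Ly6c2*, a defining marker of classical monocytes, had a log2 fold change of -0.38 (edgeR adjusted p = 0.0658). At 10 µM 1 of the 12 was called, *Fn1* (0.82, SE 0.11, edgeR adjusted p = 0.0102), beside 0.329% of all genes called higher, and the median log2 fold change of the 12 was 0.06, with *Ly6c2* at -0.12 and *Spn* at -0.23. The macrophage sum was highest at 10 µM, 2170 to 2404 CPM, beside 1837 to 2040 with vehicle and 1816 to 1963 at 50 µM. Between the doses 7 of 12 monocyte markers and 7 of 10 macrophage markers were called lower at 50 µM, beside 7.85% of all genes, and 2 and 1 were called higher, beside 7.52%. Their part in the differences of *Ccr2* and its ligands was not tested. The vehicle libraries with more *Ccr2* and *Ccl8*, replicates 3 and 4, also had higher monocyte sums (3544 and 3497 CPM, beside 3029 and 2882) and neutrophil sums (21275 and 23807 CPM, beside 16785 and 17261). The same split was seen for macrophage, basophil and mast cell, endothelial and T and NK cell markers. The T and NK sums were 15.1 and 19.4 CPM, beside 9.08 and 8.99. It was not seen for dendritic cell, B cell, eosinophil or stromal markers, so it is not particular to cells that carry *Ccr2*.

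Markers of other cells were followed in the same way. Neutrophil markers were summed at 12529 to 17227 CPM at 50 µM, beside 16487 to 18838 at 10 µM and 16785 to 23807 with vehicle, and 6 of 11 fell at 50 µM against vehicle (6.5% of all genes). B cell markers were summed at 10.8 to 18.4 CPM with vehicle, 15.3 to 21.7 at 10 µM and 25.8 to 41.3 at 50 µM, where 4 of 4 rose against vehicle (7% of all genes). Stromal markers, 3 of 7 of which were tested, were summed at 8.39 to 14.2 CPM with vehicle, 7.64 to 11.8 at 10 µM and 5.02 to 6.43 at 50 µM, where *Lepr* fell against vehicle. Endothelial markers were summed at 45.4 to 60.6 CPM with vehicle, 63.3 to 75.0 at 10 µM and 45.4 to 55.9 at 50 µM. *Pecam1* made up most of that sum, with means of 45.75, 59.4 and 44.2 CPM, and was called lower at 50 µM than at 10 µM. The means were 6.45, 8.05 and 6.35 CPM for *Kdr* and 0.553, 0.789 and 0.362 CPM for *Cdh5*. Dendritic cell markers were summed at 619 to 684 CPM with vehicle, 667 to 803 at 10 µM and 628 to 795 at 50 µM, and of 7 tested *Batf3* (log2 fold change 1.20, SE 0.12, edgeR adjusted p = 3.55e-05) and *Zbtb46* (0.38, SE 0.10, edgeR adjusted p = 0.0263) rose at 50 µM against vehicle and none fell. Of 5 basophil and mast cell markers *Kit* fell at 50 µM against vehicle, and no eosinophil (3 tested) or T and NK cell marker (4 of 8 tested) was called in any comparison. The part of these cells in the differences of *Ccr2*, its ligands and the other chemokine genes was not tested.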

How the data were processed

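RNA-seq of the 12 cultures was analysed from the table of counts per gene. The authors used Atropos for trimming, hisat2 2.2.1 for alignment to mm10 and featureCounts 2.0.1 for counting on Ensembl genes, and the deposited values are these raw counts. The libraries were made with a stranded kit, and the strand setting of the counting is not given in the sources used here. The medium was changed on day 3 according to the labels and more often according to the methods. The title of 10 µM replicate 3 repeats that of replicate 2, so its library name was used.

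Groups were compared with edgeR 4.0.16 in R 4.3.3 (TMM, glmQLFit, glmQLFTest), which was tested on simulated data. The standard error is the log2 fold change over the square root of F. Alternatives were DESeq2 1.42.0, limma-voom (limma 3.58.1), DESeq2's size factors, no filter, a minimum of 10 counts per library, all 12 libraries in the fit, a replicate block and leaving out each library. No library of a group was a copy of another. Named genes were the 5 members, the 5 genes most correlated with *Ccr2* and with *Ccl2*, and those of the lists past the threshold or with the highest CPM. The members and lists were chosen with earlier results of these data known. Sequences and positions are from GENCODE M21 and RefSeq on GRCm38. 1 gene of the receptor list is not reported here.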

Additional observations from a re-analysis of the deposited data

Results flagged for a closer look

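Of the 15 sets of 4 libraries formed by the 5 members and 3 groups, 1 held a library far from the rest: *Ccl8* at 50 µM, where replicate 1 had 1.47 CPM and the other 3 between 0.437 and 0.546 CPM. The gap to the nearest library was 0.894 of the group's range, over Dixon's critical value of 0.829, and chance flags about 1 in 20 such groups. Without this library the log2 fold change of *Ccl8* at 50 µM was -2.43 against vehicle (edgeR adjusted p = 0.0181) and -3.55 against 10 µM (edgeR adjusted p = 2.17e-05).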

How the results depend on the processing

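Over the members and alternatives, 195 of 223 values kept their direction and their side of the threshold, 14 newly passed it, 12 no longer did and 2 changed direction. For *Ccr2* at 10 µM against vehicle, the log2 fold change of 0.54 became significant with DESeq2 (0.54, adjusted p = 0.00287), with no filter (0.54, 0.00631) and with all 12 libraries in the fit (0.54, 0.0302). Leaving out 1 library gave 0.45 to 0.66 and adjusted p-values from 0.00759 to 0.316. *Ccr2* at 50 µM kept its call against both groups under all alternatives, with -0.86 to -0.64 against vehicle and -1.35 to -1.27 against 10 µM when 1 library was left out. The number of the 4 ligands called at 10 µM was 1, and 2 with DESeq2, no filter or all 12 libraries. Leaving out 1 library gave 0 to 2. At 50 µM against 10 µM it was 2, and 1 with at least 10 counts in every library, where *Ccl8* was not among the genes tested, and 3 with no filter, where *Ccl7* passed (adjusted p = 0.0439). Leaving out 1 library gave 2 to 3 there and 2 to 3 at 50 µM against vehicle, where 3 were called with edgeR and 2 to 4 under the other alternatives. *Ccl12* between the doses ranged from -0.069 to 0.25 with 1 library left out and changed direction without 10 µM replicate 3 (-0.069) or 50 µM replicate 2 (-0.04). *Ccl12* at 50 µM against vehicle passed the threshold in DESeq2, with at least 10 counts and with all 12 libraries. Over all genes, 61 were called at 10 µM with edgeR, 250 with DESeq2, 150 with no filter and 118 with all 12 libraries, and between 4 (without 10 µM replicate 2) and 122 (without vehicle replicate 4) with 1 library left out.

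Replicate numbers are shared between groups, but libraries with the same number deviated together little or not at all (correlations from -0.24 to 0.14). No clear pairing was thus seen, but these values cannot exclude that libraries with the same number share a marrow preparation. With a replicate block, 0 of the 4 ligands and 3 genes in all were called at 10 µM, *Ccl2* having a log2 fold change of 0.73 (adjusted p = 0.238) and *Ccr2* 0.57 (adjusted p = 0.233); 971 genes had an unadjusted p under 0.05. *Ccl8* at 50 µM against vehicle had -1.72 (adjusted p = 0.0587) with the block. At 50 µM the libraries held 9 to 30 reads of *Ccl8* and 26 to 58 of *Ccl12*.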
